A study of Sus scrofa with 8 samples.

Results

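The genes described are CD4, CD8A and CD8B, which encode the coreceptors of the T cell receptor. They were taken as every array probe whose platform gene symbol is one of these names, which gave 6 probes, 2 for each of the 3 genes, out of 43603 probes, of which 10278 carry 1 of 4560 gene symbols. All 6 passed the filter on dim probes, as 30522 probes of the array did. CD4 and CD8A probes matched current RefSeq transcripts of those genes. The CD8B probes were not matched to a current RefSeq transcript, so their gene rests on the symbol of the platform annotation.

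CD4 binds MHC class II and CD8 binds MHC class I, and both bring the kinase LCK to the T cell receptor. CD8 is made either as a homodimer of 2 alpha chains, encoded by CD8A, or as a heterodimer of an alpha and a beta chain, the latter encoded by CD8B. The heterodimer marks classical cytotoxic T cells, whereas in the pig the alpha homodimer is also found on activated and memory CD4 T cells, on NK cells and on part of the gamma delta T cells. Mature T cells positive for both CD4 and CD8 are therefore a normal population of the pig. CD8A and CD8B lie next to each other in the Sscrofa11.1 annotation, with 0 annotated genes between them.

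Colostrum, the first milk, and blood came from 2 Large White x Landrace sows. CD3+ cells were sorted, per the labels, into CD4-CD8+ cells (CD8 single positive) and CD4+CD8+ cells (double positive), which gives 4 groups of 2 samples, 1 from each sow. Colostrum cDNA carried Alexa Fluor 3 and blood cDNA Alexa Fluor 5 in every sample, so any difference of colostrum from blood cannot be told apart from one of dye, while both populations of 1 source carry the same dye. The sort used the CD4 and CD8 proteins, so the transcripts are a check of the sort and no independent discovery. Which CD8 chain the antibody binds is not given in the sources used here.

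Levels are normalized log2 intensities, in which 1 unit is a doubling. The floor was 5.34, and detection in a sample, called above background, meant exceeding the 95th percentile of the negative-control spots, a threshold between 6.78 and 7.05 on the same scale. From 28.9% to 36.1% of all probes did so. Before normalization the median of the negative controls was 68 to 81 intensity units in colostrum samples and 1 to 8 in blood samples. The part of this background in the differences of colostrum from blood was not tested. The number of arrays limits the precision. The CD3 genes CD3D, CD3E, CD3G and CD247 and the T cell adhesion gene CD2 were above background on both arrays of every group. In bulk samples, fewer cells of a type and less RNA per cell cannot be told apart.

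**Figure D1:**
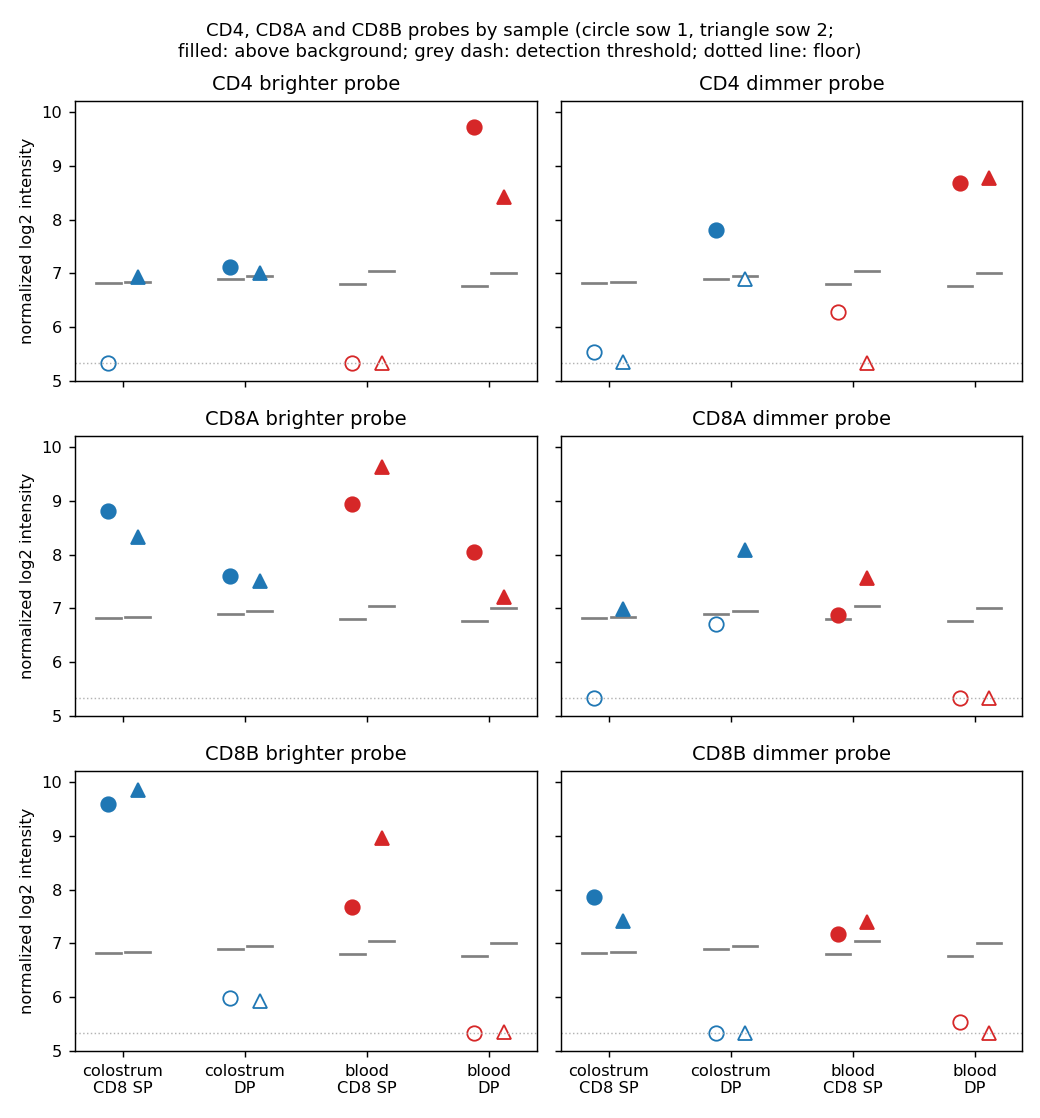
Normalized log2 intensity of each of the 6 probes (y axis) in the 4 groups (x axis; SP, single positive; DP, double positive). Each point is 1 sample, filled when above background; both CD8B probes were above background in all 4 CD8 single positive samples and in 0 of 4 double positive samples.

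CD8B was the gene with the widest gap between the populations, 1.68 between the nearest samples of its brighter probe and 1.63 for the dimmer one. Its brighter probe (A_72_P571179) was at 9.58 in sow 1 and 9.84 in sow 2 in colostrum CD8 single positive cells. In the blood counterpart it was at 7.68 in sow 1 and 8.95 in sow 2. In double positive cells it was at 5.99 and 5.94 in colostrum and at 5.34 and 5.37 in blood. The 4 CD8 single positive samples were all above background and all double positive samples below it, with no overlap in either source. The dimmer CD8B probe (A_72_P088456) showed the same split at lower levels. In CD8 single positive cells it was at 7.86 and 7.41 in colostrum and at 7.18 and 7.40 in blood, against values between 5.34 and 5.55 in the double positive samples. Over the 8 samples both CD8B probes were above background together in 4 and below it together in 4. Their levels had a Pearson correlation of 0.95, given as a description.

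Both CD8B probes stayed below detection in double positive cells, so the fold differences are lower bounds. For these, the CD8 single positive mean was set against the detection threshold of each double positive array, or the probe's value where that was higher. In colostrum CD8B was at least 6.89-fold lower in double positive than in CD8 single positive cells by the brighter probe and at least 1.64-fold lower by the dimmer one. In blood it was at least 2.68-fold and at least 1.32-fold lower. The group order was colostrum CD8 single positive, then blood CD8 single positive cells, with double positive cells of both sources below the threshold and therefore unordered. For the dimmer probe the step between the sources was small against the spread of the sows (7.64 ± 0.31 and 7.29 ± 0.15, SD, n = 2), and the nearest samples differed by 0.02.

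CD8A, which both CD8 forms need, was measured in every sample by its brighter probe (A_72_P077466). In CD8 single positive cells this probe was at 8.81 in sow 1 and 8.32 in sow 2 in colostrum, and at 8.93 and 9.63 in blood. Double positive cells had it at 7.60 and 7.51 in colostrum, and at 8.04 and 7.21 in blood. Each double positive sample was thus above background, and below each CD8 single positive sample. The double positive values exceeded their thresholds by 0.70 and 0.55 in colostrum and by 1.27 and only 0.20 in blood. The difference was -1.01 ± 0.54 (SE of the limma fit) in colostrum and -1.66 ± 0.54 in blood, with limma's adjusted p at 0.764 and 0.972. The group means ran from 9.28 ± 0.50 (SD, n = 2) in blood CD8 single positive cells over 8.56 ± 0.34 in colostrum CD8 single positive cells to 7.62 ± 0.59 in blood and 7.55 ± 0.06 in colostrum double positive cells. The last pair, a step of 0.07, lay within the spread between sows. The first pair did not overlap, but its gap between the nearest samples was only 0.12.

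The dimmer CD8A probe (A_72_P685866) gave another picture in colostrum. It was at 5.34 and 6.98 in colostrum CD8 single positive cells and at 6.71 and 8.08 in colostrum double positive cells. In blood it was at 6.88 and 7.57 in CD8 single positive cells and at the floor in both double positive samples. The colostrum groups overlapped, with the higher value in sow 2 each time, and the blood groups did not. Detection was reached on 1 of 2 arrays in each colostrum group. In blood it was reached on both arrays of the CD8 single positive and on neither of the double positive group. The difference between double positive and CD8 single positive cells was 1.24 ± 0.68 in colostrum, opposite in sign to that of the brighter probe. In blood the dimmer probe was at least 1.26-fold lower in double positive cells, with the same sign as the brighter probe. Across the 8 samples the CD8A probes had a Pearson correlation of 0.20, against 0.85 for the CD4 probes, again as descriptions over samples that share sows. The probes of CD8A therefore disagree in colostrum, and by the dimmer one CD8A was not detected in blood double positive cells. Detection of CD8A in all double positive samples thus holds for the brighter probe only, and these data do not show which probe is right.

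CD4 was high in blood double positive cells and lower in colostrum double positive cells. Its brighter probe (A_72_P077421) was at 9.72 in sow 1 and 8.41 in sow 2 in blood double positive cells, and at the floor in both blood CD8 single positive samples. In colostrum it was at 7.13 and 7.00 in double positive cells and at 5.34 and 6.94 in CD8 single positive cells. The colostrum double positive values exceeded their detection thresholds by only 0.23 and 0.04, and the colostrum CD8 single positive sample of sow 2 exceeded its own by 0.10. By this probe the colostrum populations were thus nearly level in sow 2 (a difference of 0.065) and apart in sow 1 (1.78).

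The dimmer CD4 probe (A_72_P306178) kept the colostrum populations apart in both sows. It was at 7.81 and 6.90 in colostrum double positive cells, where 1 of 2 arrays was above background, and at 5.55 and 5.37 in colostrum CD8 single positive cells, where neither was. In blood it was at 8.68 and 8.77 in double positive cells and at 6.29 and 5.34, below background, in CD8 single positive cells. CD4 was therefore at least 4.40-fold higher in double positive than in CD8 single positive cells of blood by the brighter probe and at least 3.47-fold higher by the dimmer one. In colostrum the dimmer probe differed by 1.90 ± 0.55 on floored values, without a bound, since 1 double positive sample was below background. The brighter probe differed by 0.92 ± 0.66, within the spread between sows. Without colostrum CD8 single positive replicate 2 that difference was 1.81, and without replicate 1 it was 0.13. Both probes ordered the double positive groups alike, with blood above colostrum.

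Double positive and CD8 single positive cells were compared within each source and as the mean of both sources. In the mean over both sources, the difference of the brighter CD8B probe was -3.35 ± 0.39 (SE), with a 95% interval from -4.22 to -2.48 on floored values, and CD8B was at least 4.30-fold lower in double positive cells. It had the second rank by p of 30522 tested probes, and its adjusted p in limma with Benjamini-Hochberg adjustment was 0.0561, which missed the threshold of 0.05. The dimmer CD8B probe differed by -2.07 ± 0.34, or at least 1.47-fold, and the dimmer CD4 probe by 2.40 ± 0.39, with limma's adjusted p at 0.234 for both. Standard errors depend on the floor, which removes spread among values below it. With a floor of 1 unit the dimmer CD8B probe was at -3.80 ± 1.13 and the dimmer CD4 probe at 3.74 ± 1.24. The brighter CD8B probe was then at -3.44 ± 0.40. For the brighter CD4 probe the difference was 2.32 ± 0.46 (adjusted p = 0.345 in limma) and for the brighter CD8A probe -1.33 ± 0.38 (0.361). The dimmer CD8A probe, with its opposite signs by source, averaged -0.32 ± 0.48 (0.918).

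None of the 6 probes was called in any comparison of the main fit at an adjusted p under 0.05. In the mean over both sources limma called 1 probe of the whole array, 0.00328% of those tested, which was a probe of the chemokine gene CCL5. With the sow as a block 3 probes were called and the brighter CD8B probe was at an adjusted p of 0.0669 in limma. With sow and population as a random block, which allows for the pairing of colostrum and blood samples, 0 probes were called and it was at 0.129. No probe was called either under 75th percentile scaling, cyclic loess, a floor of 1 unit, no filter, the authors' deposited matrix or without any 1 sample. Normexp background correction gave 9 calls among 30522 tested probes and 1 probe per gene gave 4 among 3773, with the brighter CD8B probe among them both times. In the main fit the calls within colostrum and within blood were 0% of the tested probes. At an unadjusted p under 0.05 in the mean comparison, 2 of 6 coreceptor probes were higher and 3 lower in double positive cells, against 4.95% of all tested probes in each direction. In blood 2 were higher and 4 lower, against 2.64% and 2.48%, and in colostrum 1 was higher and 2 lower, against 3.54% and 3.58%. Disregarding direction, the shares of the array were 9.9% in the mean, 5.12% in blood and 7.13% in colostrum.

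Counted by overlap alone, both CD4 probes were higher in double positive than in CD8 single positive cells with no overlap in blood, where 16.1% of all tested probes did the same, and in colostrum, where 17.2% did. All 4 CD8A and CD8B probes were lower with no overlap in blood, against 16.6% of the array, and 3 of them in colostrum, against 16.3%. Over all 4 samples a population, 2 probes (both of CD4) were higher without overlap, against 2.57%, and 3 were lower, against 2.66%. The separation of the brighter CD4 probe over all samples rested on a gap of 0.065. In colostrum and in blood alike, each of the 6 probes differed in the same direction in both sows.

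**Figure D2:**
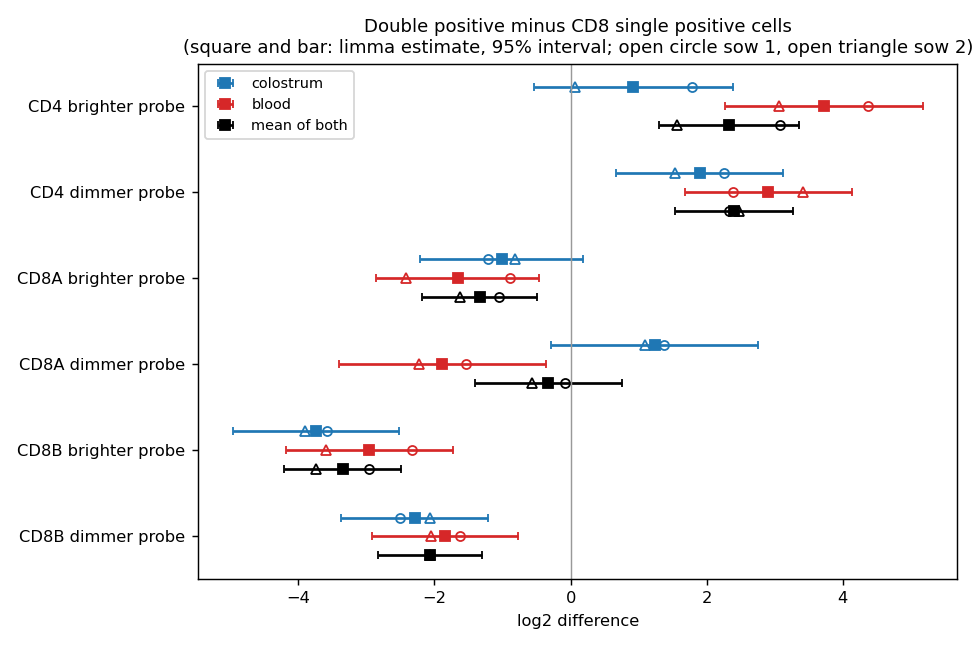
Log2 difference between double positive and CD8 single positive cells (x axis) for the 6 probes (y axis) in colostrum, in blood and as the mean of both; squares are limma estimates with 95% intervals, and open symbols are the 2 sows. The CD4 probes lie to the right of 0 and the CD8B probes to the left in both sources, while the dimmer CD8A probe lies on opposite sides (1.24 in colostrum and -1.88 in blood).

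Whether double positive cells carry CD8 alpha without beta was read as the change of CD8B relative to CD8A. For each sample the log2 level of the brighter CD8A probe was taken from that of the brighter CD8B probe, and only the change of this value between samples has a meaning, since levels of different probes cannot be compared. It was 0.77 and 1.52 in the colostrum and -1.25 and -0.68 in the blood CD8 single positive samples. In double positive cells it was -1.60 and -1.57 in colostrum and -2.70 and -1.84 in blood. Within each source both double positive samples lay below both CD8 single positive samples, on values of CD8B below background in the former.

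The mean was -1.93 ± 0.53 (SD, n = 4) in double positive and 0.09 ± 1.28 in CD8 single positive cells. The difference was -2.73 in colostrum and -1.30 in blood, lower in 4 of 4 pairs of the same sow and source, with pairs between -1.16 and -3.08. An exact two-sided permutation of the population labels within each source gave p = 0.0556 for the mean difference of -2.02, which is the smallest p that its 36 arrangements allow, so this permutation cannot reach 0.05. Permuting the labels across sources as well, over 70 arrangements, gave an exact p of 0.0286 for the same difference, again the smallest possible. That permutation treats samples of both sources and of the same sow as exchangeable, although the CD8 single positive values differed between the sources. Since CD8B was below background in all 4 double positive samples, the size of the mean difference between the populations depends on the floor. With the floor raised to the detection threshold, a setting chosen after the data were seen, it was -0.78 (exact permutation p = 0.278), and with normexp background correction -1.28 (exact p = 0.111). At the raised floor the brighter CD8B probe differed by -2.81 between the populations in colostrum and the brighter CD8A probe by -1.01. In blood they differed by -1.42 and -1.66, so there CD8B did not fall more than CD8A at that floor. With the other probe pairs and the main floor, the mean difference was between -0.73 and -3.03. With the dimmer CD8B probe it was -0.73 against the brighter CD8A probe (exact permutation p = 0.111) and -1.74 against the dimmer one (exact permutation p = 0.222). In blood the dimmer CD8B probe differed by -1.84 between the populations, the brighter CD8A probe by -1.66 and the dimmer one by -1.88. The 4 of 4 pairs were counted for the brighter probes only. In double positive cells CD8B transcript was not detectable by either probe at this sensitivity. CD8A transcript was above background in all 4 of these samples by its brighter probe and in 1 of 4, from colostrum, by its dimmer probe. In CD8 single positive cells the dimmer CD8B probe exceeded its thresholds by only 1.03 and 0.58 in colostrum and by 0.37 and 0.35 in blood. Its loss of detection in double positive cells therefore cannot show a fall larger than that of CD8A. CD8 dimers on the cell surface were not measured in these files.

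**Figure D3:**
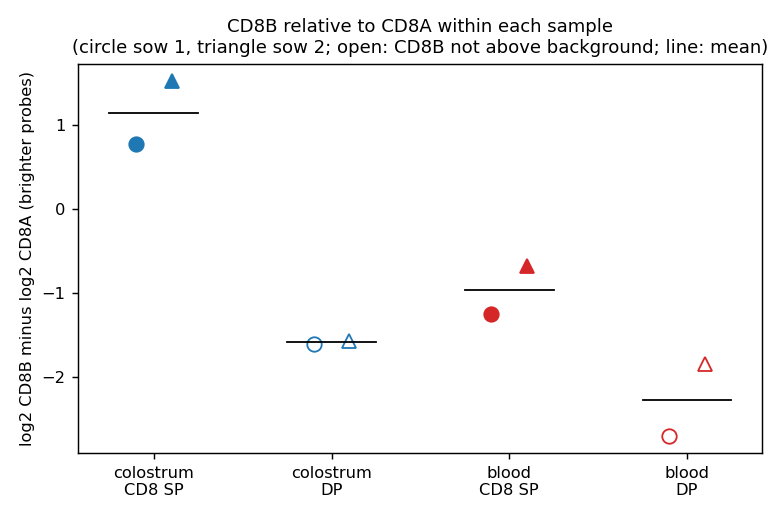
Log2 level of the brighter CD8B probe minus that of the brighter CD8A probe (y axis) in each sample of the 4 groups (x axis), with the group mean as a line. Within each source the double positive samples lie below the CD8 single positive samples, and open symbols mark samples in which CD8B was not above background.

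The series was designed to compare colostrum with blood within each population. In double positive cells CD4 was lower in colostrum in both sows and by both probes. For the brighter probe the difference was -2.00 ± 0.66, with -2.59 in sow 1 and -1.41 in sow 2. For the dimmer one it was -1.37 ± 0.55, with -0.87 and -1.87. Limma's adjusted p was 0.737 and 0.761, and 0.287 and 0.361 with sow and population as a random block. Whether the colostrum and blood samples of 1 sow and population shared an array is not given in the sources used here. Under 75th percentile scaling, which shifts the median of all probes by 0.26, the differences were -2.75 and -2.22 (adjusted p = 0.101 and 0.0732). The colostrum and blood samples did not overlap for either CD4 probe, as for 18.1% of all tested probes in that direction. The brighter CD8A probe differed by -0.07 ± 0.54, with opposite signs in the sows, a 95% interval from -1.27 to 1.13 and a value of 0.54 under cyclic loess. The dimmer CD8A probe was higher in colostrum by 2.05 ± 0.68 on floored values, with 1 of 2 colostrum arrays above background and both blood samples at the floor. Its groups did not overlap, as for 16.6% of the array in that direction. Both CD8B probes were below background in both double positive groups, so no difference between colostrum and blood can be given.

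In CD8 single positive cells, the brighter CD8B probe was higher in colostrum by 1.40 ± 0.55, with 1.91 in sow 1 and 0.89 in sow 2. Both CD8B probes were higher with no overlap, as were 16.1% of all tested probes, and the brighter CD8A probe was lower with none, as were 18.4%. The adjusted p of the brighter CD8B probe in limma was 0.908, and under 75th percentile scaling, which shifts the median of all probes by 0.23 in this comparison, the difference was 0.44. The dimmer CD8B probe differed by 0.35 ± 0.48, and by -0.44 under cyclic loess. The brighter CD8A probe was lower in colostrum by its estimate of -0.71 ± 0.54, with -0.12 in sow 1 and -1.31 in sow 2, and the dimmer one by -1.07 ± 0.68. CD4 was below background in blood CD8 single positive cells by both probes and above it on 1 colostrum array by 1 probe. No member was called in either population, where the calls were 0% of the tested probes. At an unadjusted p under 0.05 in CD8 single positive cells, 1 member was higher and 0 lower in colostrum, against 2.92% and 2.53% of the array (5.45% in all). For double positive cells 1 was higher and 2 lower, against 3% and 3.32% (6.32% in all).

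**Figure D4:**
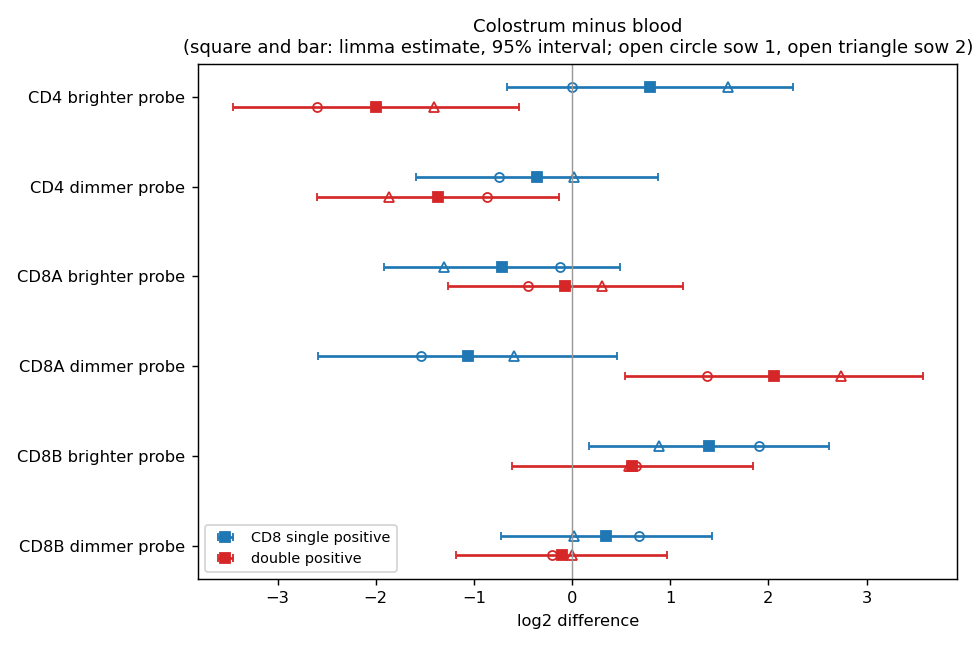
Log2 difference between colostrum and blood (x axis) for the 6 probes (y axis) in CD8 single positive and double positive cells, with limma estimates, 95% intervals and the 2 sows as open symbols. The CD4 probes in double positive cells lie left of 0 (-2.00 and -1.37), and dye and source cannot be told apart here.

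The difference between these comparisons, in which a dye effect equal in both populations would cancel, was 3.12 ± 0.97 for the dimmer CD8A probe and -2.80 ± 0.93 for the brighter CD4 probe. Both values rest on a group at the floor, blood double positive cells for CD8A and blood CD8 single positive cells for CD4. With the floor at the detection threshold they were 0.89 and -2.02, and with a floor of 1 unit 6.10 and -5.22. Limma's unadjusted p was 0.00886 and 0.0127, but after adjustment both were at 1.00, and no probe of the array was called (0%). At that unadjusted level 1 member was higher and 1 lower, against 1.04% and 1.2% of the array (2.23% in all). The dimmer CD4 probe differed by -1.01 ± 0.78. The CD8B probes differed by -0.78 ± 0.78 and -0.45 ± 0.68, of opposite sign under 75th percentile scaling and cyclic loess, and rest on double positive cells below background.

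Genes of the same pathway were read from lists chosen with earlier results of these data known. None of their probes passed limma's test in any of the 6 comparisons. In the mean of both sources between double positive and CD8 single positive cells, helper genes lay on the side of CD4. Of 7 helper genes 6 were measured, 5 of them with a higher estimate in double positive cells, and the list had a median of 0.76 against -0.0014 over all tested probes. CD40LG, the ligand through which helper cells signal to B cells, differed by 2.38 ± 0.42, and 2 probes of the costimulatory receptor gene ICOS by 1.49 ± 0.37 and 1.32 ± 0.40. Cytotoxic genes lay on the side of CD8B. Of 8 such genes 6 were measured and 5 had a lower estimate, with a median of -1.40. PRF1, the pore-forming perforin, differed by -3.95 ± 0.46 at the same adjusted p as CD8B (0.0561 in limma), above background in 2 of 4 double positive samples, and 2 probes of the granzyme gene GZMB differed by -3.12 ± 0.59 and -2.77 ± 0.62.

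Among the ligands of the coreceptors and the proteins that load them, 12 of 13 genes were measured and 7 had a lower estimate in double positive cells, with a median of -0.75. The class II genes SLA-DRA, which encodes a chain of the molecule CD4 binds, and SLA-DMB, part of the peptide loading machinery, had the largest differences among probes above background on at least 2 arrays. Probes of SLA-DRA differed by -1.94 ± 0.36 and -1.84 ± 0.38, and SLA-DMB by -1.74 ± 0.50, with another probe of it at -0.45. The coreceptor signalling list, with LCK and the CD3 chains, had 8 of 11 genes measured and a median of -0.22, with CD3G at -0.85 ± 0.36 and -0.78 ± 0.55 by its 2 probes, the former below background in all 4 double positive samples. CD247 was at -0.72 ± 0.42, with other probes up to 0.05.

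Of 14 genes listed as CD4 and CD8 lineage regulators, 4 were measured, and ZBTB7B, the helper lineage factor, was not analysed here. RUNX3, which maintains CD8 and silences CD4 in cytotoxic cells, differed by -0.37 ± 0.37, by 0.09 in colostrum and -0.82 in blood. PATZ1, a repressor of CD8 genes studied in the mouse, differed by 0.68 ± 0.38 and LEF1, a factor of T cell development, by 0.56 ± 0.41, both positive in colostrum (1.73 and 1.70) and negative in blood (-0.36 and -0.58). Other probes of PATZ1 lay between -1.13 and 0.14 and those of LEF1 between -0.20 and -0.14. The median of the list was 0.43 in colostrum, with 4 of 4 genes at a higher estimate, and -0.70 in blood, with 4 of 4 at a lower one, against -0.0017 and -0.0038 over all tested probes. In the mean of both sources it was -0.11, and 0.03 under normexp and 0.02 in the authors' deposited matrix.

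**Figure D5:**
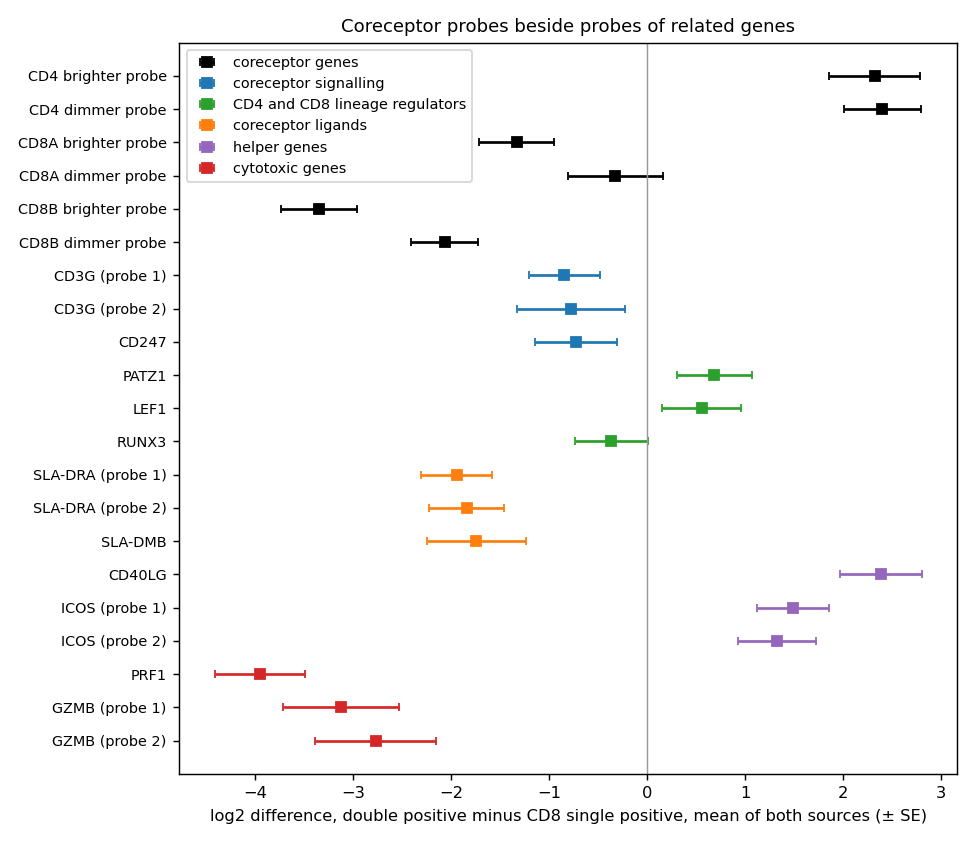
Log2 difference between double positive and CD8 single positive cells as the mean of both sources (x axis, ± SE) for the 6 coreceptor probes and the probes named from 5 lists (y axis, coloured by list). CD40LG and ICOS lie on the side of the CD4 probes, and PRF1 and GZMB on that of the CD8B probes.

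The probes most like each coreceptor over the 8 samples were named from 6194 candidates of other named genes, as a description in which all points share 2 sows. For the brighter CD8B probe these were CCL5 (r = 0.95), MCTP2 (0.95), the NK receptor gene KLRK1 (0.95), SARS (0.95) and SLA-DQA1 (0.94). For the brighter CD8A probe these were GZMM, a granzyme (0.96), the chemokine gene CCL4 (0.93), NEIL3 (0.92), NKL, the NK-lysin gene (0.92), and PRF1 (0.91). For the brighter CD4 probe these were KLF5 (0.98), F13A1 (0.94), LIMK2 (0.93), UBE2J1 (0.92) and PTGR1 (0.91), each above background on 2 to 4 arrays only. The same limit holds for MCTP2 and NEIL3, on 2 arrays each, and SARS, on 3. CCL5 was above background on all 8, with means of 12.49 and 12.11 in CD8 single positive cells of colostrum and blood and of 8.62 and 8.50 in double positive cells.

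The summed level of NK cell markers, from cells that can also carry CD8 alpha, was higher in each CD8 single positive sample than in each double positive sample. Of 8 NK cell markers 4 had a named probe, and their summed level, in intensity units, was 2042 to 2755 in colostrum and 1250 to 1437 in blood CD8 single positive cells. Among double positive samples it was 484 to 851 in colostrum and 336 to 543 in blood. KLRK1 was above background on both arrays of every group and FCER1G on both only in colostrum CD8 single positive cells. These genes are also expressed by T cells. Their part in the CD8A and CD8B results was not tested. Of 6 gamma delta T cell markers 1 had a named probe, which was above background in 0 of the 8 samples. Of 6 monocyte and macrophage markers 4 had a probe and LYZ alone reached detection on 2 arrays of a group, blood CD8 single positive cells. The dendritic cell marker IRF8 reached it on both arrays of the same group. The mammary marker CSN1S1 did so in colostrum CD8 single positive cells, and LALBA, also mammary, and the granulocyte marker S100A8 in blood double positive cells. The platelet marker GP9 reached it on both arrays of every group. The part of such cells in the results was not tested. The B cell gene CD79A reached it in all 4 CD8 single positive samples and in 1 double positive sample, from colostrum. Its part in the results on class II genes was not tested.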

How the data were processed

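RNA of 8 samples of sorted porcine T cells was amplified as cDNA from 10 ng of total RNA and dye-labelled, per the labels. The deposited files hold 1 intensity per spot for 45220 spots, with values below 0. How the arrays were scanned and corrected for background is not stated in any source available. Log2 values that the authors deposited in the series matrix served as an alternative, and all matched the quantile-normalized intensities above the floor within 0.1. Spots of a probe were averaged, 43603 probes were quantile normalized, a floor of 40.6 intensity units (from the medians of 153 negative-control spots) was set, and log2 was taken. Probes with a mean above the 30th percentile were fitted with limma 3.58.1 in R 4.3.3, with 4 group means, no block and 6 comparisons. P-values were Benjamini-Hochberg adjusted over 30522 probes. Fits were tested on simulated data.

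Same-numbered samples come from the same sow, per the labels' source names. Their deviations from group means correlated by 0.31 and 0.28 between colostrum and blood of 1 population and by at most 0.04 otherwise. With 2 sows, p-values measure the spread between these samples. Named genes were all probes of the 3 coreceptors, for each list the 3 probes with the largest mean difference between populations among those above background on at least 2 arrays, and the 5 probes most correlated with each brighter coreceptor probe. Members and lists were chosen with earlier results of these data known. Sequences of the probes and proteins were not used here.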

Additional observations from a re-analysis of the deposited data

Results flagged for a closer look

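The dimmer CD8A probe (A_72_P685866) had opposite signs in the populations, on values partly at the floor. From blood to colostrum it was lower in CD8 single positive cells in both sows (-1.54 and -0.59) and higher in double positive cells in both (1.37 and 2.74), a difference of the differences of 3.12 ± 0.97. Limma's interaction test gave an unadjusted p of 0.00886 and an adjusted p of 1.00. The brighter CD8A probe differed by 0.64 ± 0.76 in the same contrast. Both blood double positive samples and the colostrum CD8 single positive sample of sow 1 were at the floor for the dimmer probe, so 3.12 is no measured size. It was 0.89 with the floor at the detection threshold and 6.10 with a floor of 1 unit. Groups of 2 samples allow no test for a single sample that stands apart.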

How the results depend on the processing

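Medians of the helper, cytotoxic, ligand and signalling lists kept their sign under the 4 other normalizations. No coreceptor probe was called in 5 of the 6 comparisons under any of the 19 alternatives. In the mean of both sources between double positive and CD8 single positive cells, 1 coreceptor probe, the brighter CD8B probe, was called under normexp background correction and with 1 probe per gene. Its difference was -2.38 under normexp (adjusted p = 0.0102 in limma), where 9 of 30522 tested probes were called. With 1 probe per gene, a setting that tests fewer probes, it was -3.35 (adjusted p = 0.0115 in limma), and 4 of 3773 tested probes were called. Over all alternatives the difference of the brighter CD8B probe lay between -4.15 and -2.12 and its adjusted p in limma between 0.0102 and 0.535. The sow as a replicate block changed no call of a member (0.0669 for that probe), nor did the random block of sow and population (0.129). CD8B relative to CD8A was -2.02 with the replicate block (exact p = 0.125, the smallest possible) and, with labels permuted across sources, -2.02 (exact p = 0.0286, also the smallest possible). Leaving out 1 sample gave -2.30 to -1.71. The floor at the detection threshold was added after the data were seen. It gives groups below background no spread, and 44 to 118 probes of the array were then called in the 6 comparisons, none a coreceptor probe.

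The differences that changed sign were all uncalled and concern probes near or below background or pairs within the spread. The cause was not tested. Colostrum minus blood in CD8 single positive cells, the dimmer CD4 probe (-0.36) was at 0.61 under 75th percentile scaling, 1.24 under cyclic loess, 0.15 under normexp, 2.31 with a floor of 1 unit and between -0.79 and 0.10 when 1 sample was left out (positive without blood CD8 single positive replicate 1), and the dimmer CD8B probe (0.35) at -0.44 under cyclic loess. In double positive cells, the dimmer CD8B probe (-0.10) was at 0.40, 1.46, 0.14 and 1.78 under the first 4 of these settings, and the brighter CD8A probe (-0.07) at 0.54 under cyclic loess and between -0.46 and 0.31 with 1 sample left out (positive without blood double positive replicate 1). The difference of the differences turned for the brighter CD8B probe to 0.83 and 2.47 under 75th percentile scaling and cyclic loess, and for the dimmer one to 0.23, 1.90 and, with a floor of 1 unit, 1.43. The mean population difference of the dimmer CD8A probe (-0.32) was at 0.11 with the detection floor and between -0.76 and 0.090 with 1 sample left out, positive without colostrum CD8 single positive replicate 2 and without colostrum double positive replicate 1 (0.02).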
